A study of Mus musculus with 4 samples.

Results

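The genes described here make, break down or control the polyamines, and were read in RNA from the mouse mast cell line MC/9. They were given as a list of 10 genes, and every probe set (a group of short oligonucleotides that reads a transcript) annotated to one of them was taken. The list was selected on the log2 signal of Sat1, which read lower with berberine in both pairs of arrays, so the berberine differences below are descriptions. Of the 10 genes, 8 had at least 1 probe set annotated to them alone, 15 probe sets in all, among 18193 genes with 34945 such probe sets on the array. Breakdown genes accounted for 3 of the 8 (Sat1, Sat2 and Smox) and genes of synthesis and its control for 5 (Odc1, Azin1, Oaz1, Oaz2 and Srm). Amd1, which encodes the decarboxylase that supplies the aminopropyl donor, had 0 annotated probe sets. Sms, the spermine synthase gene, had 3, all listed together with a pseudogene, Sms-ps.

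Total RNA was hybridised to Affymetrix 1-colour arrays, with 1 array per group. The groups were cells given berberine with anti-DNP IgE (BER+DNP), berberine alone at 10 microM (BER) and anti-DNP IgE alone at 500 microg/ml (DNP). Untreated cells made up the remaining group (control). The label of BER+DNP names the combination without doses, and those of the single treatments are assumed for it. Berberine is an alkaloid of plants such as barberry and blocks complex I of the respiratory chain, and anti-DNP IgE is an antibody against the hapten dinitrophenyl; no antigen is named. The 3 treated groups had 24 h of treatment and a further 6 h of culture, and no times are given for the control. MC/9 is an immortal line labelled as of liver origin and (B6 X A/J)F1 background with an age of 13 days, and all 4 groups are this 1 line. With 1 array a group there is no spread within a group and no test was made, and the number of arrays limits the precision. Values are log2 signals, and a difference of log2 signals is called when it reaches 1.5-fold. Berberine is read in the pair without anti-DNP IgE (BER against control) and in the pair with it (BER+DNP against DNP), which share no array.

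The polyamines putrescine, spermidine and spermine are small cations that bind RNA, DNA and acidic proteins and are needed for growth. Ornithine decarboxylase makes putrescine, and spermidine synthase and spermine synthase add aminopropyl groups to it in turn. Antizymes bind ornithine decarboxylase and send it to the proteasome, and antizyme inhibitors take antizyme away from it. In breakdown, the acetyltransferase encoded by Sat1 tags spermidine and spermine for export or oxidation, and spermine oxidase turns spermine back into spermidine. Much of the control of these proteins is translational or by protein turnover, which an array does not read. Mast cells also store polyamines in their granules.

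Several defining mast cell genes gave weak signals on all arrays. Of 11 mast cell markers, 5 had a mean log2 signal of 3.14 or more, which is the median over 45037 probe sets (controls apart) and the filter used throughout. Kit lay between 2.60 and 3.01, Fcer1a between 2.31 and 2.58 and Ms4a2 between 2.54 and 2.85, all below that filter. Cpa3, Tpsab1 and Mrgprb1 also had means below it. Gata2 lay between 5.64 and 6.20, Hdc, the histamine-forming enzyme, between 5.32 and 5.86, and Tpsb2 between 3.97 and 4.15. Cma1 and Mcpt4 passed as well. Of 6 general blood cell markers 4 passed, with the means of Ptprc and Coro1a below the filter. Of 9 epithelial and fibroblast markers 6 passed, with Krt17 between 9.45 and 9.65, while Cdh1, Col1a1 and Vim lay below the filter. The mean log2 signal of the epithelial and fibroblast list was 4.70 in BER+DNP, 4.60 in BER, 4.67 in DNP and 4.61 in control, and that of the mast cell list was 3.45, 3.44, 3.39 and 3.28 in the same order. The blood cell list had means of 3.89 in BER+DNP, 3.95 in BER, 4.08 in DNP and 4.08 in control. Its median berberine differences were -0.11 in the pair without anti-DNP IgE and -0.18 in the pair with it. Members of that list varied. Spi1, a transcription factor gene of blood cells, gave -0.41 and -0.41, Vav1 -0.14 and -0.25, and Coro1a -0.24 and -0.42, lower in both pairs. Laptm5 gave 0.08 and -0.08, Lcp1 -0.08 and 0.13, and Ptprc 0.01 and -0.10. The mast cell list had median differences of 0.13 and 0.08 in the same pairs. The arrays correlated with each other at Pearson's r between 0.988 and 0.991 across probe sets.

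The sequence before the start of Sat1 is shown because Sat1 carries the difference on which the genes were picked, and that of its relative Sat2 because Sat2 differed little. Both are the 250 bases upstream of the RefSeq transcription start in GRCm38.p6, 5′ to 3′ on the gene's strand. The Sat1 stretch is chrX:155216450-155216699 on the minus strand and the Sat2 stretch chr11:69621802-69622051 on the plus strand. Capitals mark matches, on either strand, to the GC box (GGGCGG), the CCAAT box (CCAAT) or the E-box (CACGTG).
Sat1: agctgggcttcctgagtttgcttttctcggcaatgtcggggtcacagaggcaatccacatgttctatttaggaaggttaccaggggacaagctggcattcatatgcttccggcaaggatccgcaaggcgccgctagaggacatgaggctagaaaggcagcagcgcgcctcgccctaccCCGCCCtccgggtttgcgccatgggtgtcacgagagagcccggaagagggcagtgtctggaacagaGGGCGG
Sat2: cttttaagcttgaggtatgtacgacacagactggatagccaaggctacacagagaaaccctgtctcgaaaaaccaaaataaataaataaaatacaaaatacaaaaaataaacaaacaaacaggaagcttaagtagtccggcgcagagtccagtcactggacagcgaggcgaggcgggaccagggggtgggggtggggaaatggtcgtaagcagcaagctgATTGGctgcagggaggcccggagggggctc

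The Sat1 stretch held 2 GC box matches and 0 of the others, and was 59.6% G or C. The Sat2 stretch held 1 CCAAT box match and 0 of the others, and was 49.6% G or C. No matches overlapped in these 2 stretches. RefSeq promoters were found for 8 of the 10 genes, 9 promoters in all because Sms has 2. A GC box match was present in 6 of the 9 promoters, against 32.7% of 32851 promoter stretches of the same length. Those 6 belong to Sat1, Smox, Odc1, Oaz2, Amd1 and Sms. The CCAAT box was matched in 3 of the 9, of Sat2, Oaz1 and Sms, against 33.8% of all stretches. For the E-box it was 1 of the 9, of Sms, against 6.02%. A match is only a run of letters and not a shown binding site.

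Among the breakdown genes, Sat1 was the member past the threshold with berberine. Its only probe set, 1420502_at, had log2 signals of 7.90 in BER+DNP, 7.43 in BER, 8.50 in DNP and 8.33 in control. BER read lowest and DNP highest. In BER against control the difference was -0.91, a signal 1.87-fold lower. In BER+DNP against DNP it was -0.59, a signal 1.51-fold lower and barely past the threshold. After quantile normalization of the arrays the difference with anti-DNP IgE was -0.47, and with 32 added to the linear signals it was -0.53, both short of 1.5-fold. In bulk RNA, fewer cells that express Sat1 and less Sat1 RNA per cell cannot be told apart.

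**Figure D1:**
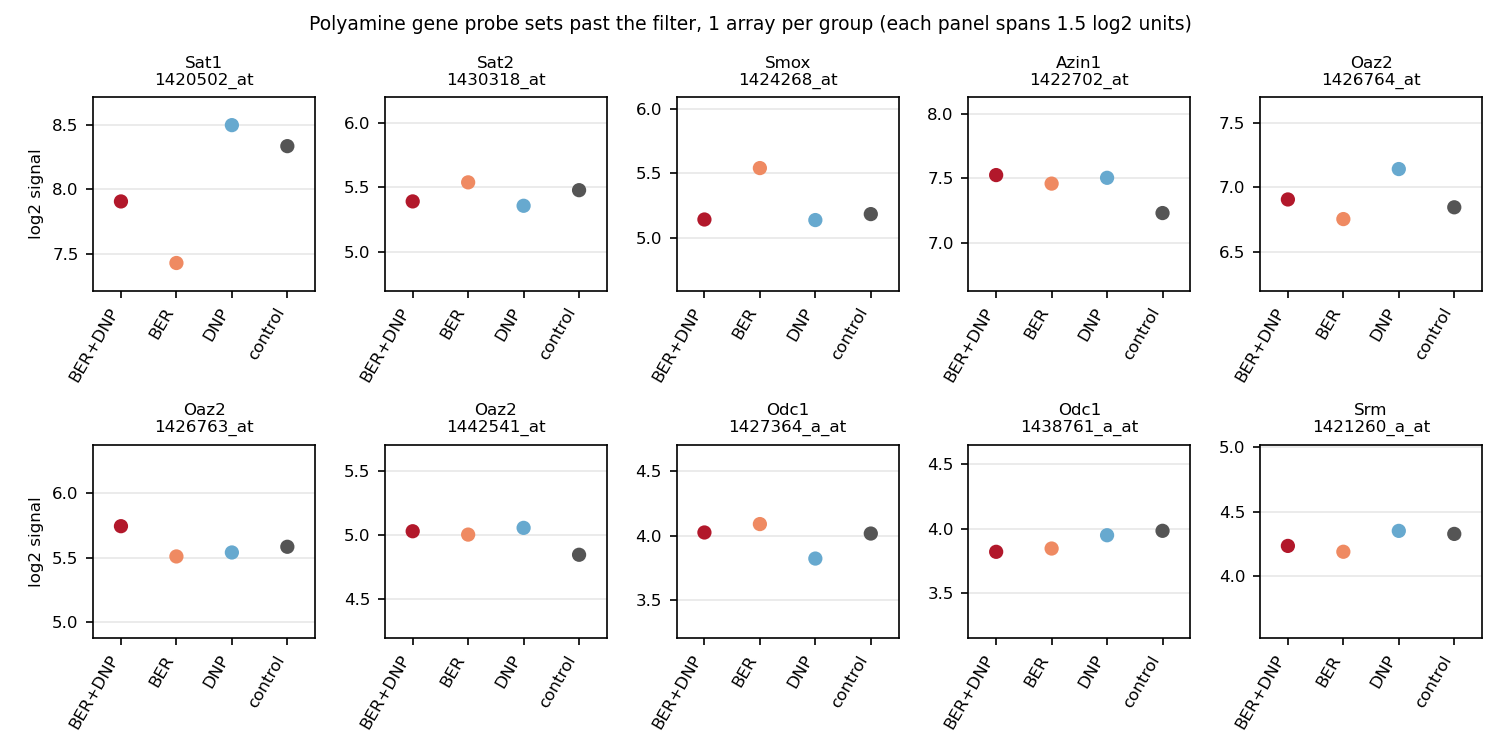
Log2 signal (y axis, 1.5 log2 units in every panel) of the 10 polyamine gene probe sets past the filter on the 4 arrays (x axis), 1 point per array and no error bars because each group has 1 array. Sat1 spans 1.07 log2 units, with BER lowest at 7.43 and DNP highest at 8.50, while the other 9 span between 0.162 and 0.403.

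Sat1 was picked because it read lower with berberine in both pairs, so its ranks here are descriptions. It stood near the low end of the array in both berberine comparisons. Its difference ranked 12 from the lowest of 22519 probe sets past the filter without anti-DNP IgE, and 142 with it. At least 1.5-fold lower were 1.04% of those probe sets in BER against control, 0.675% in BER+DNP against DNP and 0.151% in both, and 0.0577% were at least 1.5-fold higher in both. Among the 943 probe sets with a mean log2 signal of 7 or more, a bound set after the values were seen, 2.97% and 2.12% were that much lower in the same 2 comparisons, and Sat1 ranked 3 and 20.

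Some measures of RNA and sample preparation moved with the same arrays, and others did not. The beta-actin control probe set at the 5′ end of the transcript had log2 signals of 9.04 in BER+DNP, 8.85 in BER, 9.62 in DNP and 9.42 in control, the same order of arrays as Sat1. Its differences were -0.57 without anti-DNP IgE and -0.59 with it, against -0.31 and -0.22 at the 3′ end. The 24 probe sets of the poly-A control transcripts, which are added to the RNA before labelling, had median differences of -0.48 and -0.14. Controls for the Gapdh transcript differed by 0.05 and -0.08 for the 5′ part, by -0.03 and 0.02 for the 3′ part, and the 18 hybridisation controls by medians of 0.03 and 0.10. The part of these measures, and of the blood cell list differences, in the Sat1 difference was not tested.

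The other breakdown genes did not follow Sat1 past the threshold. Sat2, whose protein in work on the human enzyme acts on thialysine more than on polyamines, had log2 signals of 5.39 in BER+DNP, 5.54 in BER, 5.36 in DNP and 5.48 in control (probe set 1430318_at). It differed by 0.06 without anti-DNP IgE and by 0.03 with it, and its 4 arrays lay within 0.182 log2 units. Smox, the spermine oxidase gene, had 5.14 in BER+DNP, 5.54 in BER, 5.14 in DNP and 5.18 in control (probe set 1424268_at). BER alone stood above the other arrays for Smox, by 1.28-fold over control, which is short of the threshold. In BER+DNP against DNP Smox differed by 0.00. A second Smox probe set, 1446509_at, lay below the filter on every array, between 1.44 and 1.80.

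Odc1, the ornithine decarboxylase gene, was read past the filter by 2 probe sets that went different ways with berberine. Probe set 1427364_a_at had log2 signals of 4.03 in BER+DNP, 4.09 in BER, 3.82 in DNP and 4.02 in control. Probe set 1438761_a_at had 3.82 in BER+DNP, 3.85 in BER, 3.95 in DNP and 3.98 in control. Their differences were 0.07 and -0.14 without anti-DNP IgE, and 0.20 and -0.13 with it. Neither reached the threshold, and both carry the suffix a, which marks probe sets shared by transcripts of a gene. A further Odc1 probe set, 1437711_x_at, lay below the filter, between 1.63 and 1.79.

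Srm, the spermidine synthase gene, had log2 signals of 4.23 in BER+DNP, 4.19 in BER, 4.35 in DNP and 4.33 in control (probe set 1421260_a_at). Its berberine difference was -0.14 (1.10-fold lower) in the pair without anti-DNP IgE and -0.12 (1.08-fold lower) in the pair with it. Both are short of the threshold. The probe sets listed under both Sms and Sms-ps name no single gene; 1 of the 3 passed the filter, with 5.56 in BER+DNP, 5.57 in BER, 5.67 in DNP and 5.53 in control.

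Oaz2, an antizyme gene, differed by less than 1.5-fold with berberine, and its 3 probe sets past the filter disagreed in sign. Oaz1, the other antizyme gene of the rule, had no probe set of its own past the filter. Oaz2 probe set 1426764_at had log2 signals of 6.90 in BER+DNP, 6.75 in BER, 7.14 in DNP and 6.84 in control. Probe set 1426763_at had 5.74 in BER+DNP, 5.51 in BER, 5.54 in DNP and 5.58 in control, and 1442541_at had 5.03, 5.00, 5.05 and 4.85 in the same order. In BER against control the 3 differences lay between -0.09 and 0.16, and in BER+DNP against DNP between -0.24 and 0.20. The only probe set annotated to Oaz1 alone, 1436292_a_at, lay below the filter, between 2.10 and 2.16. A brighter probe set listed under both Oaz1 and the pseudogene Oaz1-ps gave 5.46 in BER+DNP, 5.56 in BER, 5.37 in DNP and 5.68 in control, and is not assigned to either.

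Azin1, the antizyme inhibitor gene, had log2 signals of 7.52 in BER+DNP, 7.46 in BER, 7.50 in DNP and 7.23 in control at probe set 1422702_at. The 3 treated arrays lay within a narrow band above the control. The differences were 0.23 in BER against control, 0.02 in BER+DNP against DNP and 0.27 in DNP against control, all short of the threshold. The other 2 Azin1 probe sets lay below the filter. Of these, 1430984_at had 1.71 in BER+DNP, 2.24 in BER, 2.24 in DNP and 2.59 in control, the opposite order to 1422702_at between control and the treated arrays.

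Over all 10 probe sets past the filter, which read 7 genes, 1 was at least 1.5-fold lower and 0 higher in each berberine comparison, and in each the 1 was Sat1. Among all probe sets 1.04% were lower and 0.955% higher without anti-DNP IgE, and 0.675% and 0.564% with it. Without Sat1, the other 9 lay between -0.14 and 0.36 without anti-DNP IgE and between -0.24 and 0.20 with it, with 4 below 0 and 5 above 0 in each. The median of the 10 was -0.01 without anti-DNP IgE and -0.01 with it, where all probe sets past the filter had medians of 0.00 and -0.01. The 5 probe sets below the filter are outside these counts.

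Anti-DNP IgE was not used to choose the genes, although the anti-DNP IgE comparisons share arrays with those that were. In DNP against control, 0 of the 10 probe sets were at least 1.5-fold lower and 0 higher, where 0.617% and 0.875% of all probe sets were. The differences of largest size were 0.30 for Oaz2 probe set 1426764_at, 0.27 for Azin1, 0.21 for Oaz2 probe set 1442541_at and -0.19 for Odc1 probe set 1427364_a_at. In BER+DNP against BER, 0 were lower and 0 higher, where 0.373% and 0.613% of all probe sets were. There Sat1 differed by 0.48, a signal 1.39-fold higher that ranked 22158 from the lowest of 22519, and Smox by -0.40, a signal 1.32-fold lower. Sat1 differed by 0.16 in DNP against control, and the difference of these anti-DNP IgE differences was 0.31 for Sat1 and -0.35 for Smox, with no replicate to test it.

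**Figure D2:**
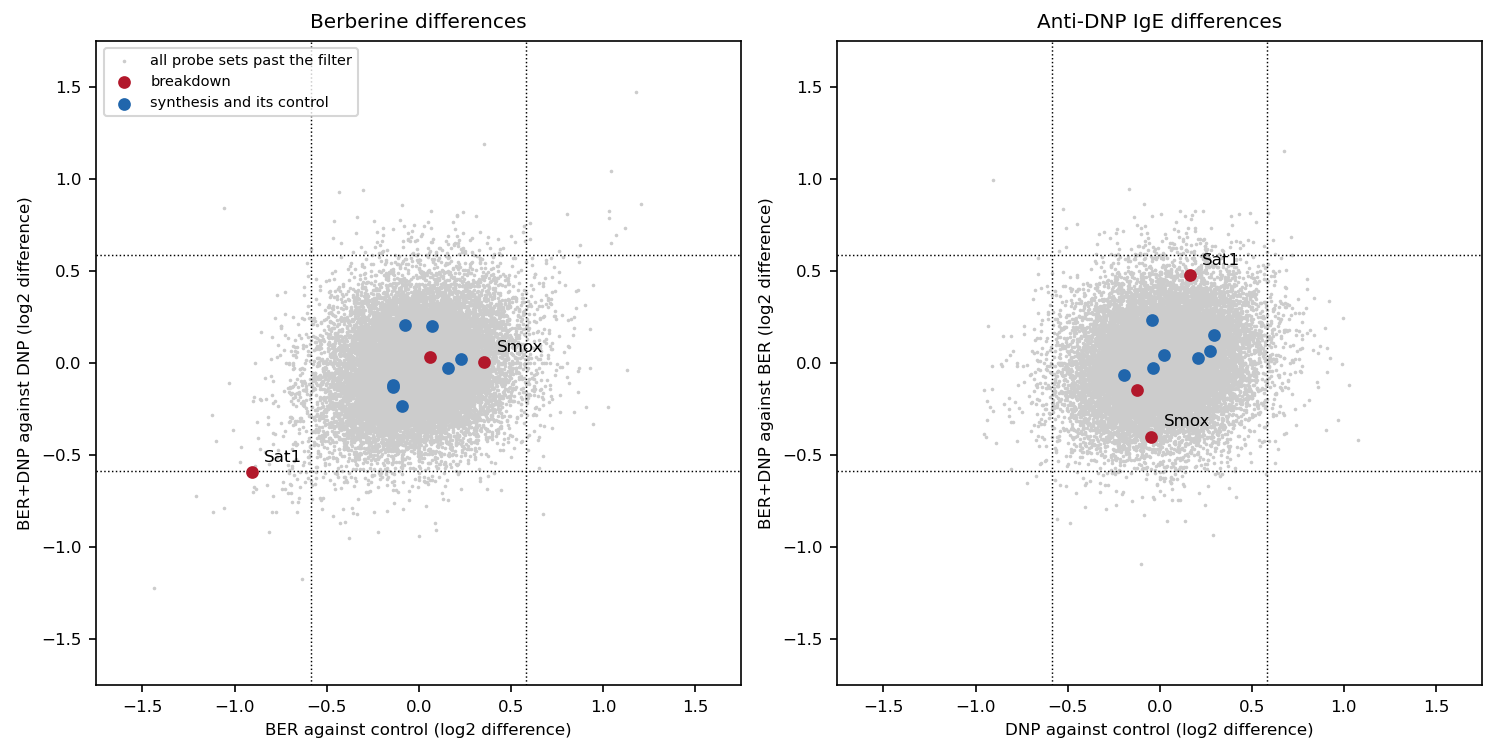
Log2 differences of all 22519 probe sets past the filter (grey) and of the 10 polyamine gene probe sets (red for breakdown, blue for synthesis and its control), with berberine comparisons on the left and anti-DNP IgE comparisons on the right; dotted lines mark 1.5-fold. Sat1 at -0.91 and -0.59 is the polyamine gene probe set past both lines on the left, and none passes a line on the right.

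The combination against untreated cells gave no called member. In BER+DNP against control, 0 of the 10 probe sets were at least 1.5-fold lower and 0 higher, where 0.826% and 0.95% of all probe sets were. Sat1 differed by -0.43, a signal 1.35-fold lower, and Azin1 by 0.29. All 3 breakdown genes lay below 0, where 49.8% of all probe sets past the filter did. Apart from Sat1 they lay near 0, with Sat2 at -0.09 and Smox at -0.04. Of the 4 synthesis and control genes past the filter, read by their brightest probe set, 1 lay below 0, Srm at -0.09; Odc1 stood at 0.01 by that probe set and at -0.16 by its other one past the filter.

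Genes around the core pathway, from lists of polyamine transport, hypusine formation, precursor supply and methionine salvage, gave 1 call in the berberine comparisons. Each gene was read by its brightest probe set, and 12585 genes passed the filter; their median was 0.00 without anti-DNP IgE and -0.02 with it. Of these genes 0.985% were at least 1.5-fold lower and 1.01% higher without anti-DNP IgE, and 0.699% and 0.509% with it, so lists of a few genes with 0 calls are near the background. Of 12 transport genes 6 passed, with medians of -0.15 and -0.12 and 0 past 1.5-fold either way. Atp13a3, of the P-type ATPases that carry polyamines into cells, gave -0.29 without anti-DNP IgE and -0.37 with it. Cav1, the caveolin of caveolar endocytosis, gave -0.49 and -0.35. Its log2 signals were 6.16 in BER+DNP, 6.18 in BER, 6.51 in DNP and 6.67 in control. Gpc1, a heparan sulfate proteoglycan gene, gave -0.28 and 0.10.

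Spermidine is also the donor for hypusine, a modified lysine of the translation factor eIF5A. All 4 hypusine genes passed the filter, with medians of -0.11 without anti-DNP IgE and -0.07 with it and 0 calls. Eif5a, the factor itself, had log2 signals of 7.93 in BER+DNP, 7.55 in BER, 8.06 in DNP and 7.91 in control, with differences of -0.36 and -0.13. Eif5a2, its relative, gave 0.11 and -0.22, and Dohh, which completes hypusine, -0.04 and 0.23.

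Of 8 genes of ornithine and arginine supply 4 passed, with medians of 0.07 without anti-DNP IgE and 0.02 with it. Oat, which links ornithine to proline and glutamate, was the 1 gene at least 1.5-fold lower, at -0.64 in BER+DNP against DNP with -0.13 in BER against control. Its log2 signals were 2.94 in BER+DNP, 3.15 in BER, 3.58 in DNP and 3.29 in control, so BER+DNP read below the filter value. Asl, of arginine synthesis, gave 0.17 and -0.09, and Aldh18a1, of proline and ornithine synthesis, 0.16 and 0.48, the second against a DNP signal of 2.94, below the filter value. Of 9 methionine cycle and salvage genes 6 passed, with medians of -0.10 and 0.02 and 0 calls. Apip and Adi1, of the salvage of the by-product methylthioadenosine, gave -0.25 and -0.30, and -0.18 and 0.24, and Mtr, the methionine synthase gene, 0.04 and 0.48. Of 6 further polyamine genes 3 passed, with medians of -0.08 and -0.11 and 0 calls: Oaz3 gave -0.13 and -0.18, Azin2 -0.08 and 0.00 and Agmat 0.02 and -0.11.

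**Figure D3:**
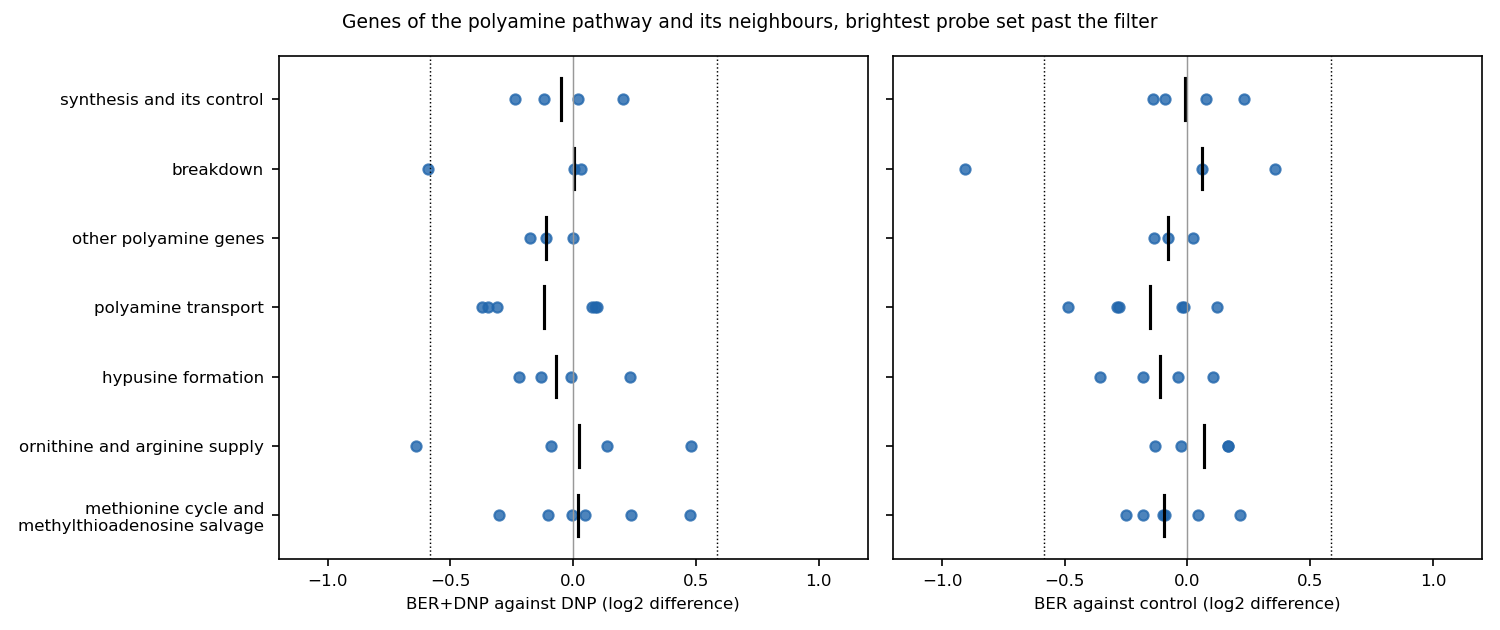
Log2 differences in BER+DNP against DNP (left) and BER against control (right) for genes of 7 lists that passed the filter, 1 point per gene and a black bar at each list's median; dotted lines mark 1.5-fold. Sat1, in the breakdown row, and Oat, in the row of ornithine and arginine supply, are the points past a dotted line.

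By distance between log2 signals centred on each gene's mean over the 4 arrays, the 5 genes most like Sat1 among 12585 were Mrpl37, Eed, Ivns1abp, Tcf4 and Med31, at distances between 0.0811 and 0.198 log2 units. Mrpl37, of the mitochondrial ribosome, had log2 signals of 3.17 in BER+DNP, 2.62 in BER, 3.75 in DNP and 3.51 in control, so BER read below the filter value, as did Ivns1abp in BER at 3.11. Eed, of a Polycomb complex, had 5.02 in BER+DNP, 4.37 in BER, 5.56 in DNP and 5.34 in control. The nearest polyamine gene was Oaz2, read by its brightest probe set 1426764_at, at 0.636 and rank 1300 of 12584. Its other probe sets past the filter were not compared. Farthest was Smox, at 1.13 and rank 11982. With 4 arrays the measure is a description of these arrays.

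**Figure D4:**
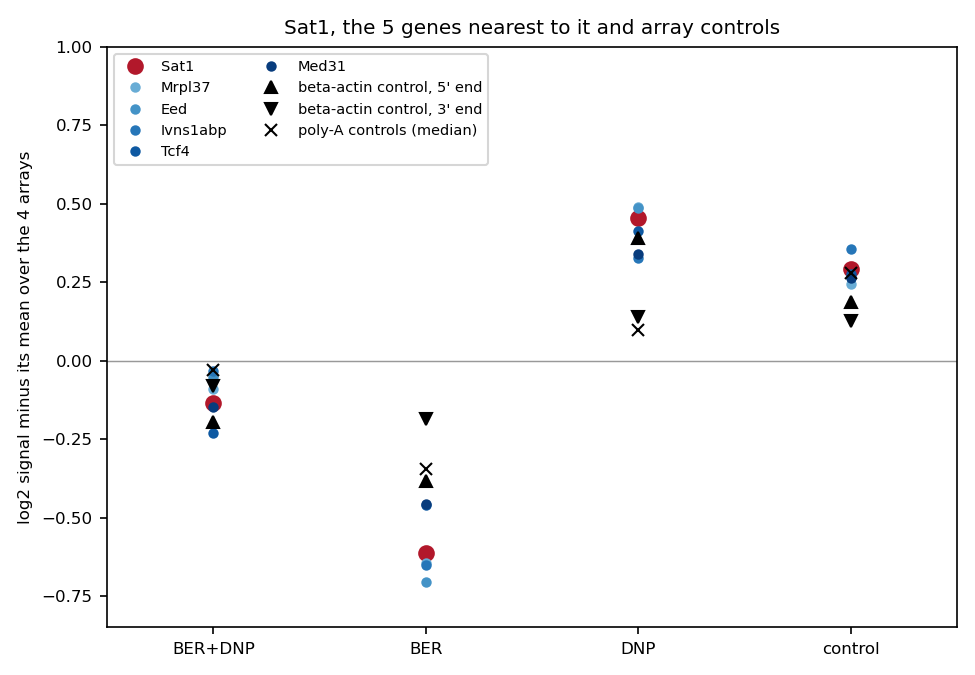
Log2 signal minus its mean over the 4 arrays (y axis) for Sat1 (large red points), the 5 genes nearest to it (blue) and array controls (black; the poly-A points are the median signal of 24 probe sets), by array (x axis). Sat1, its nearest genes and the beta-actin 5′ control all lie lowest in BER.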

How the data were processed

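The authors deposited a table of 45101 probe sets on 4 arrays of MC/9 cell RNA, made with Affymetrix Expression Console per the submitters' processing notes. Its version, the summary algorithm, the background step and detection calls are not stated there. The deposited values were taken as log2 signals, which was read from their range. They were also taken as already normalized between arrays, since the medians lay between 3.13 and 3.15. Like medians do not show whether brighter signals are level between arrays.

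Control probe sets (64) were set apart. By a platform annotation of 2016, 34945 probe sets had 1 gene symbol and 932 had several, which were left unnamed, while 9160 had no symbol. Probe sets entered counts if their mean log2 signal was at or above the median, 3.14, which left 22519. Differences of log2 signals were formed for 5 comparisons with pandas 2.3.3 and NumPy 2.4.6 in Python 3.11.15, and checked on simulated arrays. No test was made; an additive fit of berberine and anti-DNP IgE over the 4 arrays would have 1 residual degree of freedom and was not used. In each list up to 3 genes with the largest mean absolute difference over the berberine pairs were named; Sat1's 5 nearest genes were taken by Euclidean distance. The members and lists were chosen with earlier results of these data known. Alternatives were quantile normalization, other filters, an offset of 32, the median over a gene's probe sets, and leaving out probe sets ending in _x_at, _s_at or _a_at. Promoter sequences are RefSeq's, of GRCm38.p6; the array table names no build.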

Additional observations from a re-analysis of the deposited data

Results flagged for a closer look

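For 2 Oaz2 probe sets the direction of a difference turned between the pairs of arrays being compared; these differences were not tested, since each group has 1 array. Probe set 1426763_at differed by 0.20 in BER+DNP against DNP and by -0.07 in BER against control, which are 0.28 apart. It differed by 0.23 in BER+DNP against BER and by -0.04 in DNP against control. That gap is the same 0.28 by arithmetic and is no second observation. Probe set 1442541_at differed by -0.03 in BER+DNP against DNP and by 0.16 in BER against control, a difference of -0.18. All 6 values are short of 1.5-fold. Groups of 1 array allow no search for outlying samples.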

How the results depend on the processing

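No paired analysis was possible because the groups share only 1 replicate number. Leaving out an array removes the comparisons it enters and does not alter the others. Of 50 counts of called polyamine gene probe sets under the alternatives, 47 equalled the count reported. The count lower in BER+DNP against DNP, 1 as reported, was 0 with quantile normalization and 0 with 32 added to the signals. Sat1 read -0.47 and -0.53 there. Quantile normalization also moved that comparison from 0.02 to 0.12 for Azin1 and from -0.24 to -0.14 for Oaz2, each by its brightest probe set. The dimmer Srm went from -0.12 to -0.10, and Odc1 stayed at 0.20. The cause was not tested. With no filter 1 probe set was lower in BER+DNP against control, Azin1's 1430984_at at -0.88, which reads below the filter. Of 25 medians, 23 stayed within 0.1 of the value reported. The median in DNP against control, -0.01, was 0.16 over the 7 probe sets left by the filter at the 75th percentile and 0.16 over the 7 left without those ending in _x_at, _s_at or _a_at; fewer probe sets enter each. Of 145 differences of single genes under the alternatives, 143 stayed on their side of 1.5-fold, and the exceptions are the 2 Sat1 values above. Odc1, Oaz1 and Srm have no probe set without such an ending, so that alternative gave no value for them. Without detection calls, a small difference at a signal near the filter does not show an unchanged gene.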
